A study of Homo sapiens with 8 samples.

Results

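The long non-coding RNA (lncRNA) gene ENSG00000286733, called LINC02348 in GENCODE release 44, held 9 of the 24199 small open reading frames (smORFs) counted by ribosome profiling (Ribo-Seq) in Caco-2 cells. The 9 smORFs are all those that the deposited annotation assigns to this gene identifier, and no level was used here to keep or drop one of them. The authors listed a smORF only if its reads in some data set of the study passed a score for translation. Having reads in some library was therefore a condition of being listed, and members without undifferentiated reads entered through other libraries. The gene itself was chosen by its counts, because smORFs in it had no read in undifferentiated cells and many in differentiated control cells. The difference between these 2 groups is therefore described here and not tested. On hg38 the gene lies on the minus strand of chromosome 15, at chr15:101602786-101614531, and spans 11746 nt with 3 annotated transcripts. Among the 1951 non-coding genes with a smORF the median was 2 smORFs a gene, and 157 genes held 9 or more.

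Caco-2 is an established line from a human colon adenocarcinoma. Its cells stop dividing and acquire absorptive, enterocyte-type features when cultures are left to differentiate. The 8 libraries, 2 replicates in each of 4 groups, came from undifferentiated cells, differentiated cells with no further treatment (control), differentiated cells given taurocholate micelles without lipid, and differentiated cells given lipid micelles with BSA, oleic acid and cholesterol. All groups are this 1 line, and the labels do not say whether replicates came from separate cultures. The p-values below therefore rest on differences between libraries that may be technical. The spread behind them was estimated with information shared over all smORFs tested, not from the libraries of 1 smORF alone.

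In Ribo-Seq, RNA fragments protected by ribosomes are sequenced, so reads inside a reading frame mark ribosome occupancy. lncRNAs are transcripts annotated without a coding sequence, but many are exported to the cytoplasm, bind ribosomes and hold short reading frames that can encode microproteins. Differentiation of Caco-2 cells is known to change transcription widely, with brush border and lipid transport genes gained and cell cycle genes lost. Because each culture was profiled in bulk and RNA levels were not used here, more cells with the transcript, more transcript per cell and more ribosomes per transcript cannot be told apart.

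The sequences of the reading frames with the most counts show how members share bases. In IEC_23690, the most counted, capitals mark the first codon. In IEC_23479 capitals mark the stretch that is also IEC_23687, a nested reading frame in the same frame. In IEC_22964 they mark the bases of the exon shared with IEC_23479. All are written 5′ to 3′ on the minus strand without the stop codon.
IEC_23690: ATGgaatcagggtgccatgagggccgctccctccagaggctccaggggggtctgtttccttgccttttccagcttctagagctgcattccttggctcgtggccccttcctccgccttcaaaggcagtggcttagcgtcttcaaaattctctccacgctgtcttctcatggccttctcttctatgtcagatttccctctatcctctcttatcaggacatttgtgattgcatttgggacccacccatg
IEC_23479: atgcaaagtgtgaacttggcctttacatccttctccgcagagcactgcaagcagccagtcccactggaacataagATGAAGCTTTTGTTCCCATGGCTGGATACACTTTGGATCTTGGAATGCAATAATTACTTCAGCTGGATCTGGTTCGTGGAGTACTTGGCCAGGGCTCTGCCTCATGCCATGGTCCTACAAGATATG
IEC_22964: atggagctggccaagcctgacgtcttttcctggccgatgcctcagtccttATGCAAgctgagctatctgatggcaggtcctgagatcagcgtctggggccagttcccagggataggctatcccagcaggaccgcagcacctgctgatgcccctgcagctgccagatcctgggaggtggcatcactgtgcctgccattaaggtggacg

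All 9 deposited sequences were identical to hg38 at their deposited exons, and in every transcript that could hold them the codon after the last one was a stop. The first codon was ATG in 8 members, against 62.8% of the 5393 smORFs in non-coding RNAs. The exception was IEC_23476.

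The members lay along all 3 transcripts. IEC_22964 (chr15:101610080-101613590, 69 amino acids) joined 56 nt of the second exon of ENST00000618724.2 to 151 nt of the last. IEC_23479 (chr15:101605841-101613540, 67 amino acids) started 6 nt before the same splice donor but continued for 195 nt into the last exon of ENST00000655738.1. These 2 reading frames shared a 6 nt exon piece, read in different frames, and then took different exons. IEC_23690 (chr15:101607700-101607945, 82 amino acids) lay in the first exon of ENST00000666302.1 alone, as did IEC_23689 (chr15:101606827-101606928, 34 amino acids). IEC_23688 (chr15:101606032-101606875, 20 amino acids) crossed from this exon into the first 4 nt of the next. The other members sat in the last exon of ENST00000655738.1: IEC_23687 at chr15:101605841-101605966 (42 amino acids), IEC_23478 at chr15:101605617-101605760 (48 amino acids) and, further downstream, IEC_23477 (26 amino acids) and IEC_23476 (27 amino acids). IEC_23687 and IEC_23478 also lie in ENST00000666302.1, as does the 195 nt exon of IEC_23479.

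**Figure D1:**
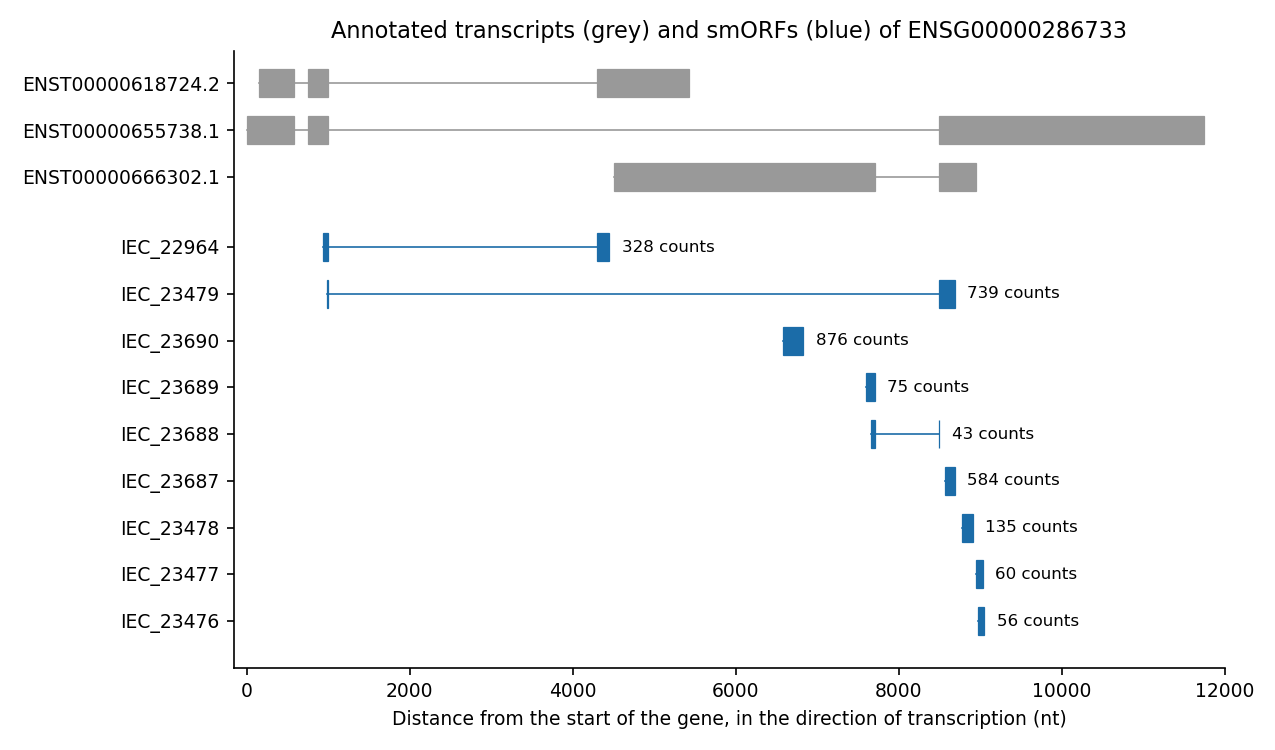
The 3 annotated transcripts (grey) and the 9 smORFs (blue) by distance from the start of the gene in nt, with boxes for exons, lines for introns and, beside each smORF, its counts summed over the 6 differentiated libraries. The 2 smORFs with the most counts are IEC_23690 with 876 and IEC_23479 with 739. They lie whole in different transcripts, but the 195 nt downstream exon of IEC_23479 also lies in ENST00000666302.1, the transcript of IEC_23690.

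Overlap joined the members into 4 chains. IEC_23687 was contained whole in IEC_23479 and covered 126 of its 201 nt. IEC_22964 and IEC_23688 shared 6 and 4 nt with IEC_23479 in other frames, and IEC_23689 joined the chain only through 49 nt shared with IEC_23688. IEC_23477 and IEC_23476 shared 59 nt, in different frames, while IEC_23690 and IEC_23478 overlapped no other smORF. Reads in shared stretches can count for both smORFs, so the gene was also followed by the sum of 1 member per chain. The member with the most counts was taken: IEC_23479, IEC_23690, IEC_23478 and IEC_23477. The sum thus leaves out IEC_22964, with 328 counts over the 6 differentiated libraries, although it shares only 6 nt with IEC_23479. IEC_23689, with 75 counts, is also left out and shares no base with a summed member. Bases held by ENST00000618724.2 alone are therefore absent from the sum. No smORF of another gene lay inside the span of the members or within 500000 bases of it, and the nearest of the 642 smORFs on the chromosome was 993299 bases away, in ASB7.

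The RibORF score rates how evenly reads cover a reading frame and whether they step by codon, and the authors kept smORFs at 0.7 or above. The highest score listed for a smORF is taken over the data sets of the study, so it does not belong to 1 of the 4 groups. IEC_22964 had the lowest of the members at 0.71, at percentile 2.44 of the non-coding smORFs. IEC_23690 scored 0.875 and IEC_23479 0.932, on either side of the non-coding median of 0.897. The nested IEC_23687 scored 0.946, and the 2 highest were IEC_23476 at 0.993 and IEC_23477 at 1.021, which are also among the least counted.

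PhyloCSF compares substitutions across species with those of coding and non-coding sequence, and values above 0 mark a coding-like pattern. None of the 9 members was above 0 in the deposited column of means, against 1.15% of the non-coding smORFs. Of the members, 7 lay between -7.45 and -6.66, close to the non-coding median of -7.13. IEC_23477 at -2.67 and IEC_23476 at -1.87 stood higher, at percentiles 86.2 and 88.1 of the non-coding smORFs. How the columns named mean and max were taken is not stated, and for both of these smORFs the value named mean exceeds the value named max, as for 1068 smORFs in all.

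**Figure D2:**
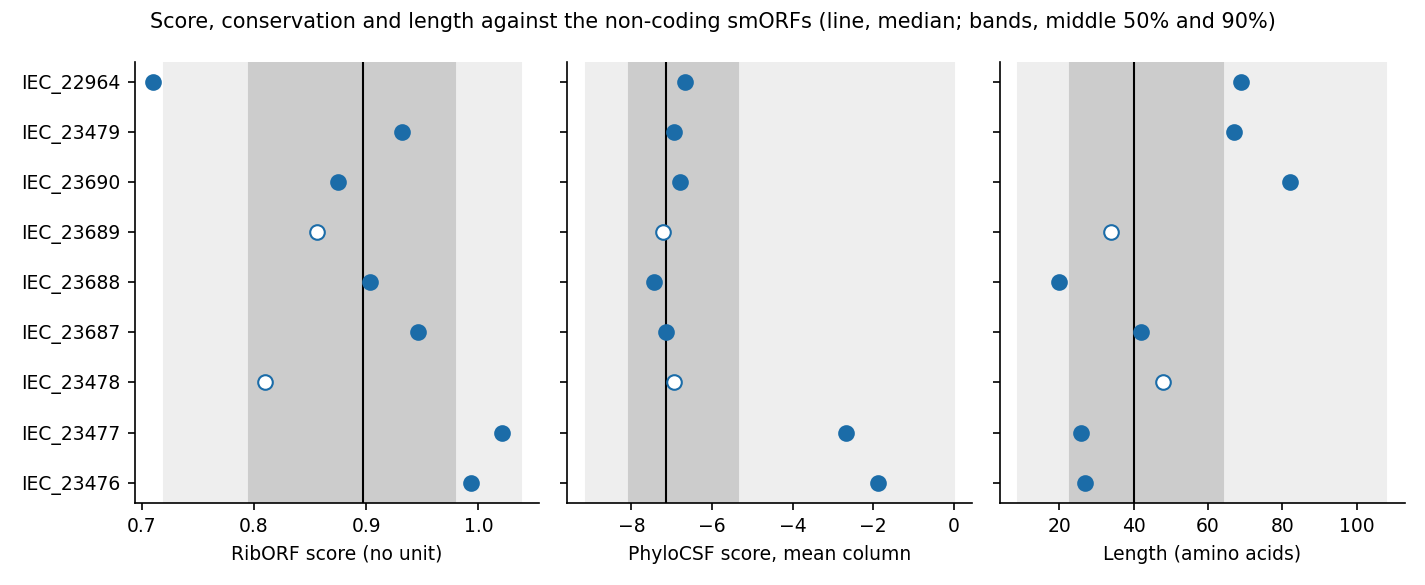
RibORF score, PhyloCSF score (column of means) and length in amino acids of the 9 members, with the median (line), middle 50% and middle 90% (bands) of the 5393 non-coding smORFs. Filled points overlap a RepeatMasker element. The 2 members in repeated sequence at the bottom have the highest RibORF and PhyloCSF scores, and IEC_22964 has the lowest RibORF score.

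A RepeatMasker element overlapped 7 of the 9 members (IEC_23478 and IEC_23689 were free of one), against 53.9% of the non-coding smORFs. To see how far reads could be placed, each window of 28 nt, about the length of a ribosome footprint, was searched for exact copies elsewhere in hg38. IEC_23476 had such copies for 20 of 54 windows (37.0%), IEC_23477 for 8 of 51 (15.7%) and IEC_23690 for 9 of 219 (4.11%). For the other 6 members no copy elsewhere was found. Within their own exons, 154 of 180 windows of IEC_22964 and 168 of 174 of IEC_23479 were found. Their other windows cross a splice junction, which the unspliced genome does not hold. Whether reads with several placements were counted is not stated, so the values of IEC_23476 and IEC_23477 are uncertain. Nearly all of IEC_23690 and the windows of IEC_23479 and IEC_22964 within exons had no exact copy at this length. Near matches were not searched.

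Every member had 0 counts in both undifferentiated libraries and from 5 to 198 counts in each of the 6 differentiated ones. Of all 24199 smORFs, 0.632% (153 smORFs in 90 host genes) were at 0 in both undifferentiated libraries and at 5 or more in each of the other 6. The gene was chosen for this step and the cut of 5 is the lowest count of its members, so this share tests nothing about them. The zeros stand against totals of 671323 and 584101 smORF counts and allow up to 4.53 and 5.14 CPM (smORF counts scaled by TMM and by library total), taking 3 counts as the limit. These limits cover counting error only.

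IEC_23690 had 104 and 149 counts in the control libraries, 129 and 154 with micelles without lipid, and 142 and 198 with lipid micelles. Scaled to depth, this was 192 ± 6.50 CPM (SD, n = 2) in control cells, 216 ± 14.3 CPM with micelles without lipid and 213 ± 13.4 CPM with lipid micelles. The level was high in all 6 differentiated libraries, between 187 and 226 CPM. With 3 counts assumed in each undifferentiated library, the control level was at least 39.6-fold higher.

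IEC_23479 had 99 and 137 counts in control cells, 109 and 149 with micelles without lipid, and 112 and 133 with lipid micelles. Its levels were 179 ± 10.5, 195 ± 5.73 and 155 ± 7.87 CPM (SD, n = 2) in the same order. The control level was at least 37.1-fold above the undifferentiated limit. Both lipid micelle libraries, at 161 and 149 CPM, lay below the 4 other differentiated libraries, which ran from 172 to 199 CPM. The share of all smORFs tested with this pattern was not counted. Lipid micelle libraries lay below control alone for 17.6% of them, and below micelles without lipid alone for 16.9%.

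IEC_22964, the only member in the last exon of ENST00000618724.2, had 47 and 66 counts in control cells, 45 and 58 with micelles without lipid, and 51 and 61 with lipid micelles. These were 85.8 ± 4.12, 78.1 ± 0.950 and 70.8 ± 3.24 CPM (SD, n = 2), with no overlap between the groups. The share of all smORFs tested with these groups apart was not counted. For 2 groups at a time, separation in the direction seen here was found for 15.9% to 17.6% of them. The control level was at least 17.7-fold above the limit.

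The remaining members were lower, apart from IEC_23687, which shares all its bases with IEC_23479. IEC_23687 had 88 and 103 counts in control cells, 97 and 112 with micelles without lipid, and 84 and 100 with lipid micelles. IEC_23478 had between 14 and 31 counts in the 6 differentiated libraries, IEC_23689 between 6 and 19, IEC_23477 between 5 and 17, IEC_23476 between 7 and 13, and IEC_23688 between 5 and 11. At such counts the control levels were only at least 7.15-fold (IEC_23478) to 2.08-fold (IEC_23688) above the limit, so for the least counted members the undifferentiated zeros leave room for a level not far below that of control cells.

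Per length, the order of the members changed. In control cells the nested IEC_23687 was the highest at 1172 ± 206 CPM per kb (SD, n = 2), followed by the whole of IEC_23479 at 892 ± 52.1, IEC_23690 at 779 ± 26.4 and IEC_22964 at 414 ± 19.9 CPM per kb. IEC_23478 was at 240 ± 42.8 CPM per kb, and the other 4 members lay between 168 and 197 CPM per kb. Each transcript had a member on bases that no other transcript of the gene holds: IEC_23690 for ENST00000666302.1, the second exon of IEC_22964 for ENST00000618724.2, and IEC_23477 for ENST00000655738.1, at 197 ± 108 CPM per kb. IEC_23690 was higher than IEC_22964 in CPM per kb in each of the 6 differentiated libraries, whereas IEC_23477 rested on 5 to 17 counts.

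In the 4 micelle libraries, per length, IEC_23690 stood at percentiles 92.3 (micelles without lipid) and 93.0 (lipid micelles) of the 5393 non-coding smORFs. IEC_23687 stood at 95.0 and 93.4, and IEC_23479 at 93.2 and 91.9. The lowest of the 9 was IEC_23476 at 59.5 with micelles without lipid and IEC_23689 at 52.0 with lipid micelles. The 5393 were listed over all cell types of the study and were not filtered by reads in Caco-2 cells. Of all 24199 smORFs, 15182 passed the count filter, so unexpressed smORFs can raise these percentiles.

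**Figure D3:**
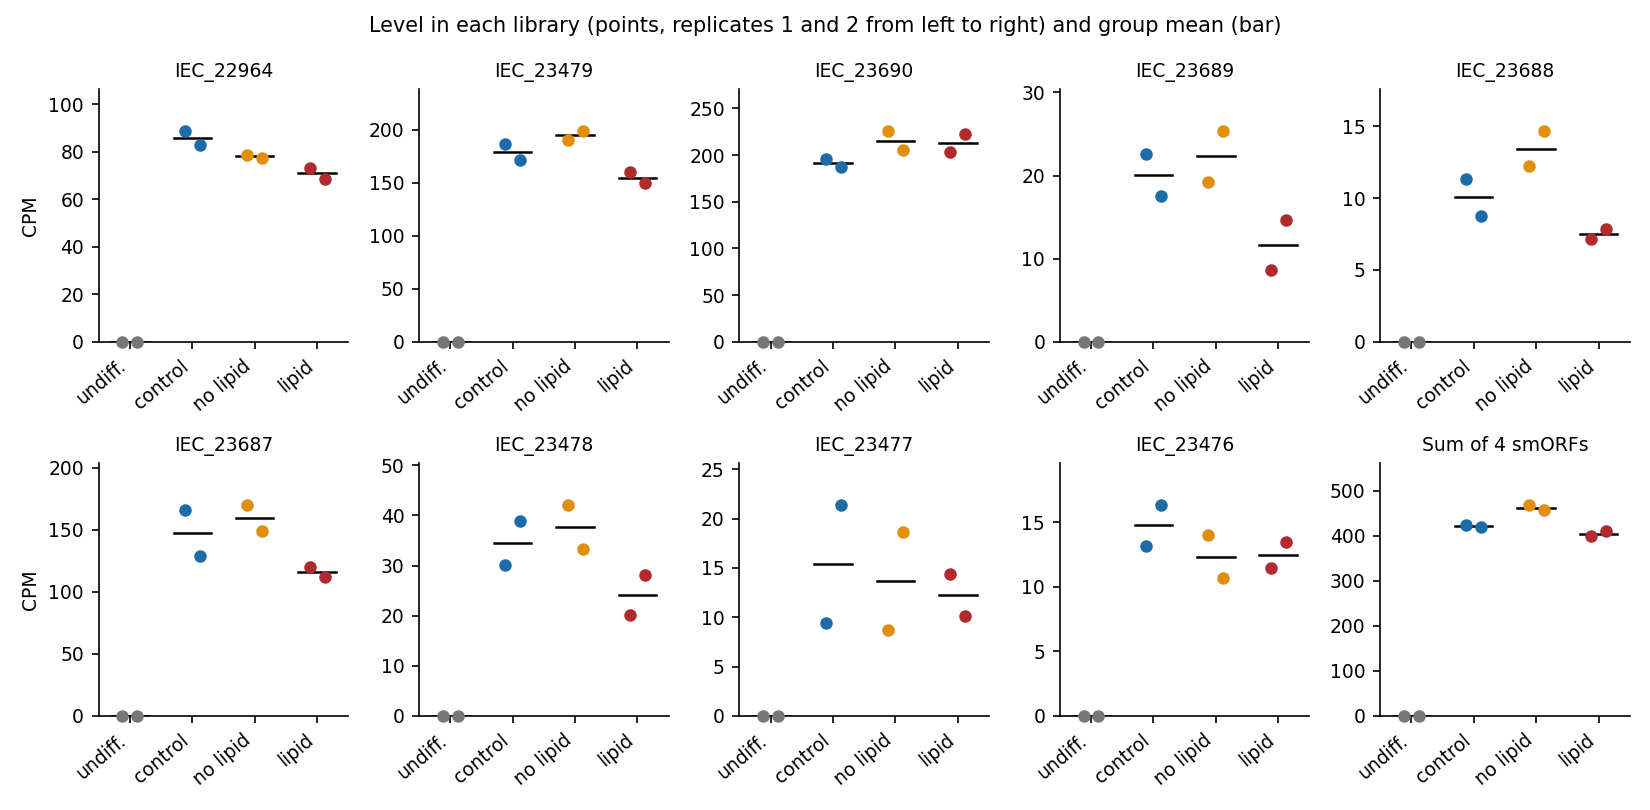
CPM of each member, and of the sum of 1 member per chain, in every library (points, replicates 1 and 2 from left to right) with the group mean (bar), each panel on its own linear axis from 0. All undifferentiated points are at 0, and in the sum the differentiated libraries lie between 399 and 467 CPM.

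The sum of 4 members came to 224 and 334 counts in control cells, 267 and 342 with micelles without lipid, and 278 and 365 with lipid micelles. IEC_23479 and IEC_23690 held 89.2% of these counts on 66.8% of the length. The sum was highest with micelles without lipid (462 ± 7.65 CPM), then in control cells (421 ± 2.39 CPM), then with lipid micelles (404 ± 8.18 CPM; SD, n = 2), and at 0 in undifferentiated cells. The libraries of the 3 differentiated groups did not overlap. For 2 groups at a time, such separation in a given direction was found for 15.9% to 18.3% of all smORFs tested. The share with all 3 groups apart was not counted. The fitted differences between the groups were small against their fitted errors, as given next. Those errors draw on the spread of all smORFs tested and are wide beside the close replicates of the sum.

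The micelle comparisons asked whether bile salt micelles, or the lipid they carry, changed ribosome occupancy of the gene. Of the 9 members, 7 passed the count filter; IEC_23476 and IEC_23688 did not. None of the 7 was called changed by edgeR (adjusted p under 0.05 and a fold change of at least 2) in any of the 3 comparisons, and none had an unadjusted p under 0.05. Calls were also absent among all 15182 smORFs tested (0% in each comparison). An unadjusted p under 0.05 was found for 620 smORFs with micelles without lipid against control, 708 with lipid micelles against control, and 627 with lipid micelles against micelles without lipid, and DESeq2 called 2, 0 and 0 smORFs.

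With micelles without lipid against control, the sum differed by a log2 fold change of 0.13 ± 0.23 (SE; 95% interval -0.36 to 0.62; edgeR adjusted p = 1). Values for the 7 members ran from -0.19 (IEC_23477) to 0.18 (IEC_23689), with a median of 0.12 against 0.0079 over all smORFs tested. IEC_23690 was at 0.17 ± 0.25 and IEC_23479 at 0.12 ± 0.25, both with edgeR adjusted p = 1. For these 2 of the 7, the libraries given micelles without lipid lay above the control libraries with no overlap, as for 16.2% of all smORFs tested, and for 1, IEC_22964, they lay below, as for 15.9%.

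Lipid micelles against control gave a log2 fold change of -0.06 ± 0.23 for the sum (95% interval -0.55 to 0.43; edgeR adjusted p = 0.994). IEC_23690 was the only member above 0, at 0.16 ± 0.25 (edgeR adjusted p = 0.982). The 6 below 0 ran to -0.73 ± 0.52 for IEC_23689 (edgeR adjusted p = 0.957), and the median of the 7 was -0.34 against 0 over all smORFs tested. The lipid micelle libraries lay below control with no overlap for 5 of the 7 and above for 1, against 17.6% and 18.3% of all smORFs tested. As smORFs of 1 gene read in the same libraries, these members are not separate measurements. The control libraries also served the previous comparison and the choice of the gene.

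In the comparison of lipid micelles with micelles without lipid, neither group entered that choice, although the libraries that did still shared in the scaling, the filter and the estimate of spread. The sum was at -0.19 ± 0.23 (log2 fold change; 95% interval -0.68 to 0.30; edgeR adjusted p = 0.999), and at -0.19 ± 0.22 with these 2 groups fitted alone. All 7 members tested were below 0, with a median of -0.33 against -0.01 over all smORFs tested. They ran from -0.01 ± 0.24 for IEC_23690 (edgeR adjusted p = 1), whose sign turned under some settings, to -0.92 ± 0.51 for IEC_23689 (edgeR adjusted p = 0.999). IEC_23687 was at -0.45 ± 0.26 and IEC_23479 at -0.33 ± 0.25. The lipid micelle libraries were both lower than those with micelles without lipid, with no overlap, for 5 of the 7, as for 16.9% of all smORFs tested. Of these 5, IEC_23687 lies within IEC_23479, which shares 6 nt with IEC_22964. IEC_23478 and IEC_23689 share no base with the others of the 5. All 5 belong to 1 gene and were read in the same libraries, so none is a separate measurement.

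**Figure D4:**
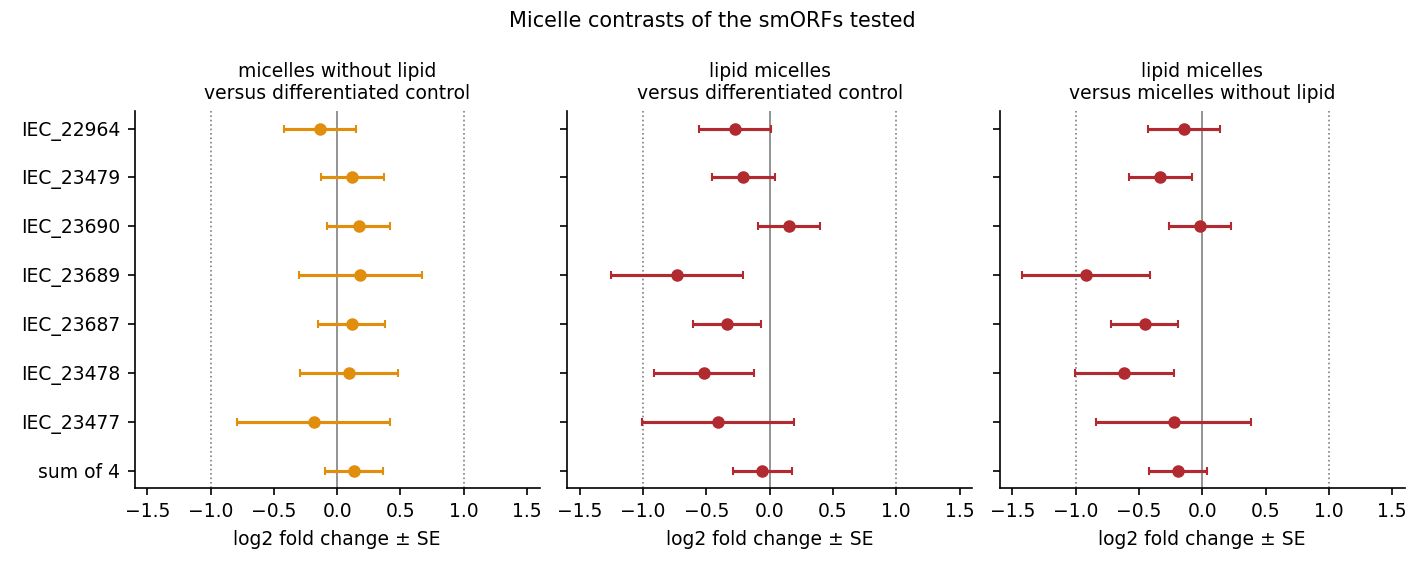
Log2 fold change ± SE from edgeR of the 7 members tested and of the sum of 4, in the 3 micelle comparisons, with dotted lines at the fold change required for a call. Bars of the better counted members cross or come near 0, and no value reaches 1 in either direction.

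The division of reads between members was described last, by ratios picked after the values were seen and without a test. IEC_23690 took 51.2% and 52.1% of the counts of IEC_23690 and IEC_23479 together in the control libraries, 54.2% and 50.8% with micelles without lipid, and 55.9% and 59.8% with lipid micelles. The 2 lipid micelle libraries were thus the highest of the 6. Their 95% Wilson intervals, 49.8% to 61.9% and 54.5% to 65.0%, overlapped those of the other libraries, such as 46.3% to 57.8% in control replicate 2. The Wilson intervals given here and next cover counting error only, not the spread between libraries.

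Within IEC_23479, the nested IEC_23687 makes up 62.7% of the length. It held 88.9% of the counts in control replicate 1 (95% Wilson interval 81.2% to 93.7%) and 75.2% in replicate 2 (67.3% to 81.7%). With micelles without lipid the shares were 89.0% and 75.2%, and with lipid micelles 75.0% and 75.2%. Reads were denser in the downstream stretch in each library, and in 2 of the 3 groups the replicates differed by more than the group means of 82.0%, 82.1% and 75.1% did. Since both reading frames have the same frame and stop, a read in the shared stretch cannot be assigned to either start.

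**Figure D5:**
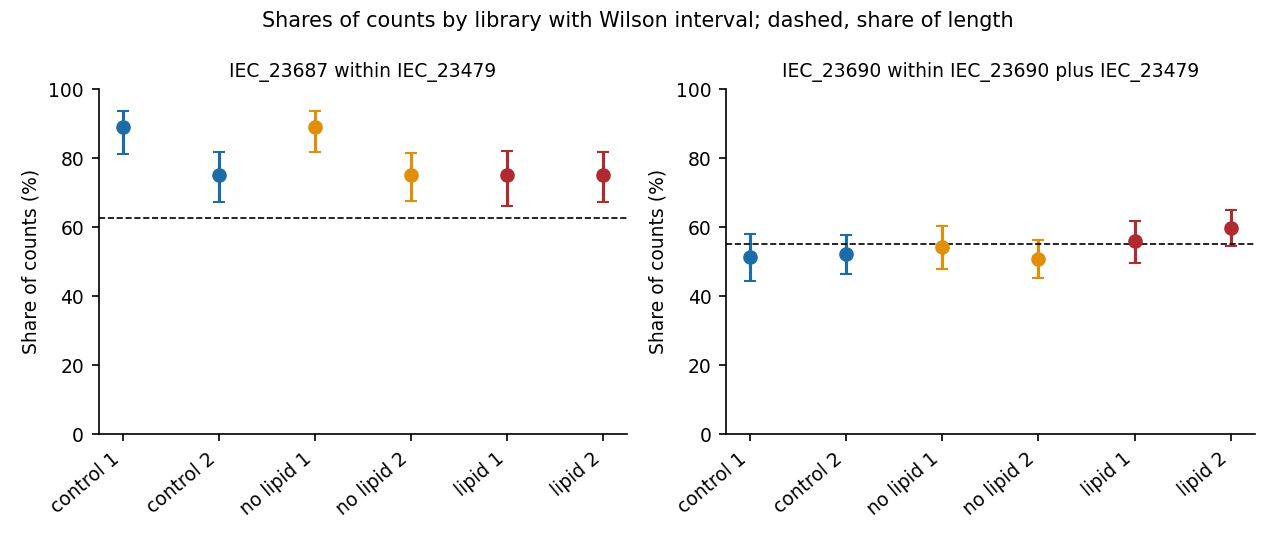
Share of counts in percent, by library, of IEC_23687 within IEC_23479 (left) and of IEC_23690 within IEC_23690 plus IEC_23479 (right), with 95% Wilson intervals, and the share of the length as a dashed line. On the left all 6 libraries are at 75.0% or more against 62.7% of the length, and on the right the 2 lipid micelle libraries are the highest, with overlapping intervals.

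The host genes with the most similar profile to the sum were ranked by Pearson's r of log2(CPM + 1) over the 8 libraries. The 5 highest of 4677 host genes were SLC46A3, a lysosomal transporter (IEC_13937, r = 0.9996), LINC02754 (IEC_08214, r = 0.999), HPN, the transmembrane serine protease hepsin (IEC_00862, r = 0.998), ST6GAL1, a sialyltransferase (IEC_06180, r = 0.998), and ENSG00000287406 (IEC_11955, r = 0.998). None of these lies on chromosome 15. IEC_13937 had 0 and 0 counts in undifferentiated cells and 23 to 33 in the differentiated libraries. LINC02754 was higher than the sum throughout, with 22 and 20 counts in undifferentiated cells and 615 ± 29.8 CPM in control cells (SD, n = 2). Because the profile is mostly a step between undifferentiated and differentiated libraries, 99 host genes reached an r of at least 0.99, and no p is attached to the ranking.

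Library totals ran from 506382 to 884711 smORF counts, and replicates correlated at r = 0.868 to 0.909 across the smORFs tested (log2(CPM + 1)). The labelled state was checked by the smORFs of marker host genes, which lie outside known coding sequence and so do not measure the marker proteins themselves. Of 19 enterocyte marker smORFs tested, 14 were higher in control than in undifferentiated cells and 1 was lower, against 17.9% and 15.5% of all smORFs tested. Only 9 of the 22 listed enterocyte genes had a smORF, and CDX2 alone held 8 of their 24. The smORFs of 1 gene are not separate measurements. Those of APOA4, an apolipoprotein of intestinal lipid transport, went from 5 and 3 counts to 551 and 994. The smORF of APOA1, on the same list, went the other way, from 624 and 807 counts to 155 and 453. Of 23 proliferation marker smORFs, in 7 of 16 listed genes, 22 were lower. CDK1, a kinase that drives mitosis, and AURKA each held 7 of the 23. Those of CDK1 had 3087 and 3237 counts in undifferentiated and 179 and 317 in control cells. Of 3 progenitor marker smORFs tested, 2 were higher. By gene, only 3 of the 6 listed had a smORF, and they went different ways from undifferentiated to control cells. ASCL2 went from 19 and 25 counts to 42 and 84, LGR5 from 4 and 6 to 1 and 0, and AXIN2 from 4 and 7 to 2 and 2. No goblet or enteroendocrine marker gene had a smORF. Fibroblast marker smORFs summed to 53.1 to 95.1 CPM in undifferentiated libraries and to 4.49 CPM or less in the others, and immune marker smORFs to at most 11.3 CPM in any library. The enterocyte and proliferation lists differed between the same groups as the members of ENSG00000286733, and their part in its levels was not tested.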

How the data were processed

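Ribo-Seq libraries of Caco-2 cells were grouped by their labels. The authors aligned reads to hg38 with STAR (2.7.11a in the submitters' processing notes), assembled transcripts with StringTie, translated them in 3 frames and scored reading frames with RibORF, keeping smORFs at a score of 0.7 or above and of at most 150 amino acids. The authors then counted reads per smORF with HOMER and deposited raw counts. The strand and multi-mapping options are not stated, so reads in overlapping smORFs or opposite a gene may be shared. The deposited annotation also gives RibORF and PhyloCSF scores, whose upstream steps are otherwise not stated.

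smORFs were joined to counts by identifier, and exons were read from the deposited coordinates. Transcripts came from GENCODE release 44, and windows of 28 nt were searched in hg38 with BLAST 2.17.0. Counts were tested with edgeR 4.0.16 (R 4.3.3): filterByExpr, library totals over all smORFs, TMM scaling and a quasi-likelihood fit with a term per group to all 8 libraries, with p adjusted by the Benjamini-Hochberg method over 15182 smORFs. The sum of 4 members was added as 1 further row of the same table. CPM are counts over the TMM-scaled total. Errors are SD between libraries or the SE from the quasi-likelihood F statistic, and intervals use its degrees of freedom. With 2 libraries a group an exact permutation test cannot go below p = 0.333, so none was run. DESeq2 1.42.0, other scalings and filters, a replicate block and left-out libraries were tried as alternatives. Python 3.11.15 and scipy 1.17.1 were used for the rest.

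The gene, its members, the marker lists and the tests were chosen with earlier results of these data known. Named genes are all smORFs of the gene, the nearest host gene, the 5 host genes with the most similar profile, and up to 4 marker genes per list with the highest counts. The sequences and coordinates of IEC_23476 and IEC_23477 are not reported here.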

Additional observations from a re-analysis of the deposited data

How the results depend on the processing

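No member was called in any of the 3 micelle comparisons under any alternative that could be fitted, and the log2 fold change of the sum kept its sign in all of them. Requiring 10 counts in every library left no member to test. Leaving out 1 library in turn moved the sum between 0.11 and 0.15 for micelles without lipid against control, between -0.08 and -0.04 for lipid micelles against control, and between -0.21 and -0.16 between the micelles. Without TMM, the sum was at 434 CPM in control cells and 452 CPM with micelles without lipid.

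Single members turned sign when a library was left out. IEC_23477 ran from -0.87 to 0.57 for micelles without lipid against control, from -0.82 to 0.37 for lipid micelles against control and from -0.62 to 0.47 between the micelles. For micelles without lipid against control, IEC_23478 ran from -0.078 to 0.31, IEC_23687 from -0.056 to 0.29 and IEC_23689 from -0.045 to 0.35. IEC_23690 ran from -0.077 to 0.055 between the micelles, and was at 0.0014 with no count filter. Of the 5 most similar host genes, 4 stayed with log2(CPM + 0.1) and 0 by Spearman's rho, which uses the order of the libraries and not the size of the step. The list thus depends on the measure used.

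Equally numbered libraries share a replicate number and consecutive sample numbers in the deposited column names. What these stand for is not stated. With 2 pairs, the deviations of such libraries from the group mean correlated at 0.174, 0.111 and 0.0960 among differentiated groups. With undifferentiated cells they correlated at -0.05 to 0.02. With a replicate block in the 6 differentiated libraries, the sum was at 0.13, -0.06 and -0.19 in the 3 comparisons and no member was called, while calls over all smORFs went from 0 to 15, 1 and 14. With the block in all 8 libraries they were 15, 0 and 3, and with no count filter 36, 4 and 23. The fit on the 6 differentiated libraries alone, chosen after seeing the data, called 0 in each. Counts of 5 to 19 in the least covered members limit their precision, and 2 libraries a group limit that of all.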
